A study of Mus musculus with 2 samples.

Results

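A set of 10 genes that respond to Wnt signalling and mark stem and progenitor cells of the intestinal crypt was followed through the nuclei of chronically inflamed mouse colon. The genes are Lgr5, Lgr4, Rnf43, Znrf3, Axin2, Ascl2, Sox9, Smoc2, Lrig1 and Ephb3, taken by their exact symbols out of the 32285 genes of the deposited tables. RNA was counted nucleus by nucleus in frozen colon of C57BL/6J mice aged 8 to 12 weeks. The mice had drunk 2% dextran sodium sulfate (DSS), which injures the colon epithelium, for 3 days and then recovered for 4 days, in each of 4 cycles, and tissue was taken on day 28. Both groups received DSS, and no untreated colon is compared here. In HIF-1α KO mice (Ncr1cre+ Hif-1α fl+/fl+) the Cre was driven by the promoter of Ncr1, which encodes NKp46 and is active in NKp46-expressing lymphoid cells, and the WT mice were littermates. Tissue of 3 animals was pooled into 1 library per genotype, so that no difference between the genotypes has a replicate check, no test was made, and every interval given is a 95% interval that covers counting error only.

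The WT library held 13492810 unique molecular identifiers (UMIs, each standing for 1 captured RNA molecule) over 4896 barcodes, and the HIF-1α KO library held 25489277 over 4772. Nuclei with 400 to 5000 detected genes and at most 10% mitochondrial UMIs were kept. This left 4884 WT nuclei with a median of 2058.5 UMIs and 4702 HIF-1α KO nuclei with a median of 4197. The HIF-1α KO nuclei were thus deeper, and 3 barcode sequences occurred in both libraries.

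In the crypt, Wnt ligands bind Frizzled receptors together with LRP5 or LRP6 and stabilise β-catenin, which switches on target genes with TCF and LEF factors. R-spondins bind LGR4 and LGR5 and draw the ubiquitin ligases RNF43 and ZNRF3 off the cell surface, where these ligases otherwise clear Frizzled. In the colon LGR5 and the transcription factor ASCL2 mark stem cells at the crypt base, and cells lose such markers as they move up the crypt and become absorptive colonocytes or goblet cells.

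Positions are given for the build GRCm38. Lgr5 (ENSMUSG00000020140) lies on chromosome 10 from 115450311 to 115587780, Axin2 (ENSMUSG00000000142) lies on chromosome 11 from 108920349 to 108950783, and Lrig1 (ENSMUSG00000030029) lies on chromosome 6 from 94604529 to 94700158. RefSeq promoters of GRCm38.p6, from 250 bases before to 50 bases after a transcription start, were matched for 6 genes of the set, Lgr4, Lrig1, Ascl2, Axin2, Ephb3 and Rnf43, the last with more than 1 start. The TCF and LEF motif CTTTGAT, searched on both strands, was in 0 of these 7 windows and in 1225 of all 32851 promoter windows, or 3.73%, which says only that these letters are not in these windows. The 250 bases upstream of the start are shown for Axin2, the general feedback target of the pathway, and for Lrig1. Lrig1 had the highest level per kb of gene span of the set in the crypt nuclei below. Both sequences run 5′ to 3′ on the strand of the gene, in lower case throughout because there was no match to mark. They lie at chr11:108920099-108920348 on the plus strand and at chr6:94700146-94700395 on the minus strand. The RefSeq start of Lrig1 lies inside the gene span given above, so the last bases of its sequence fall within that span.
Axin2: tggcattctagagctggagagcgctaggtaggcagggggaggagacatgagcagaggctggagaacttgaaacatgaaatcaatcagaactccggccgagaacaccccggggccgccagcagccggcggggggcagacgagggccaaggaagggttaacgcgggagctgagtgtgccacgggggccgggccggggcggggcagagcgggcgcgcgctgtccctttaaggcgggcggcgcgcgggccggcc
Lrig1: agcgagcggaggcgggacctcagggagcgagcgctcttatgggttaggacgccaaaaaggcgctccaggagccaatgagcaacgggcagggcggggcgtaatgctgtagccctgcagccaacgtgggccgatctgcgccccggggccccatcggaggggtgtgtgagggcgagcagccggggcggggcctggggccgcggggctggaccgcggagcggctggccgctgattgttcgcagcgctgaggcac

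Nuclei were clustered with the 10 genes and the other Wnt and R-spondin genes withheld, and clusters were named from other markers. Of 24 clusters, 1 was named non-cycling crypt and is called crypt-like here. It held 790 WT nuclei (median 1561.5 UMIs) and 551 HIF-1α KO nuclei (median 2704 UMIs). Its name was a close call. Of its 12 markers 4 passed the 1.5-fold mark against all other nuclei, and the mean log2 ratio of the list was 0.44, against 0.42 for markers of enterocytes with Htr4 and Cftr. Kcnq1, a potassium channel gene, stood at 462 and 658 CPM against 167 and 173 CPM in the rest, and Cdca7 at 45.3 and 28.3 CPM against 19.1 and 12.3 CPM. Kcnq1 was also among the leading genes of the cluster of enterocytes with Htr4 and Cftr, so it does not set the crypt-like cluster apart from that one. The crypt markers Prom1 (126 and 164 CPM against 169 and 235 CPM) and Igfbp4 (25.1 and 6.49 CPM against 37.0 and 9.90 CPM) went the other way.

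Cycling nuclei (443 in WT and 314 in HIF-1α KO) held 12.1 and 22.4 UMIs per nucleus of 12 cycling markers such as Top2a and Tpx2. Crypt-like nuclei held 2.02 and 1.89, and immune-like nuclei, which are of another lineage, 1.66 and 1.86. In CPM the sum of these markers was 3288 and 3570.4 in cycling, 1147 and 616 in crypt-like, 947 and 891 in immune-like, 380.2 and 199 in goblet and 276 and 147 in absorptive nuclei, so that by this measure crypt-like nuclei stood above goblet and absorptive nuclei. At least 1 such UMI was found in 75.6% and 67.3% of crypt-like nuclei and in 66.5% and 62.7% of immune-like nuclei, whose medians were 1473 and 1781 UMIs. Whether immune-like nuclei held cycling cells of their own was not tested, and the immune-like cluster led by Pax5 and Bank1, 98 and 155 of them, had cycling as its second class, with a mean log2 marker ratio of 0.62 against 3.69 for immune markers. Fibroblast-like nuclei had 439 and 560.1 CPM and smooth muscle-like nuclei 400.3 and 218 CPM of the cycling markers. Per nucleus, the other 4 classes counted held fewer UMIs, 1.23 and 1.07 in absorptive, 1.20 and 1.04 in goblet, 1.05 and 1.64 in fibroblast-like and 0.960 and 0.802 in smooth muscle-like nuclei. Absorptive colonocytes (381 and 664 nuclei, with Ceacam20 and Clca4a) and goblet cells (595 and 959 nuclei, with Fcgbp and Clca1) stood for differentiated epithelium.

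Levels are given in CPM, the UMIs of a gene per 1e+06 UMIs of the class, with WT first and HIF-1α KO second where no library is named. A UMI stands for a captured molecule whatever its length, so CPM need not scale with the length of a gene. Levels of different genes are set side by side per kb of gene span as a description only. The gene span used for this holds introns, and whether intronic reads were counted is not known. The order of genes per kb rests on that. Per kb of gene span crypt-like nuclei held 13.9 and 12.5 CPM of Lrig1, 8.69 and 9.06 CPM of Sox9, 4.99 and 7.30 CPM of Lgr4 and 0.240 and 0.318 CPM of Lgr5. Most of the set fell from crypt-like to absorptive nuclei in both libraries, and Lgr4 did not.

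**Figure D1:**
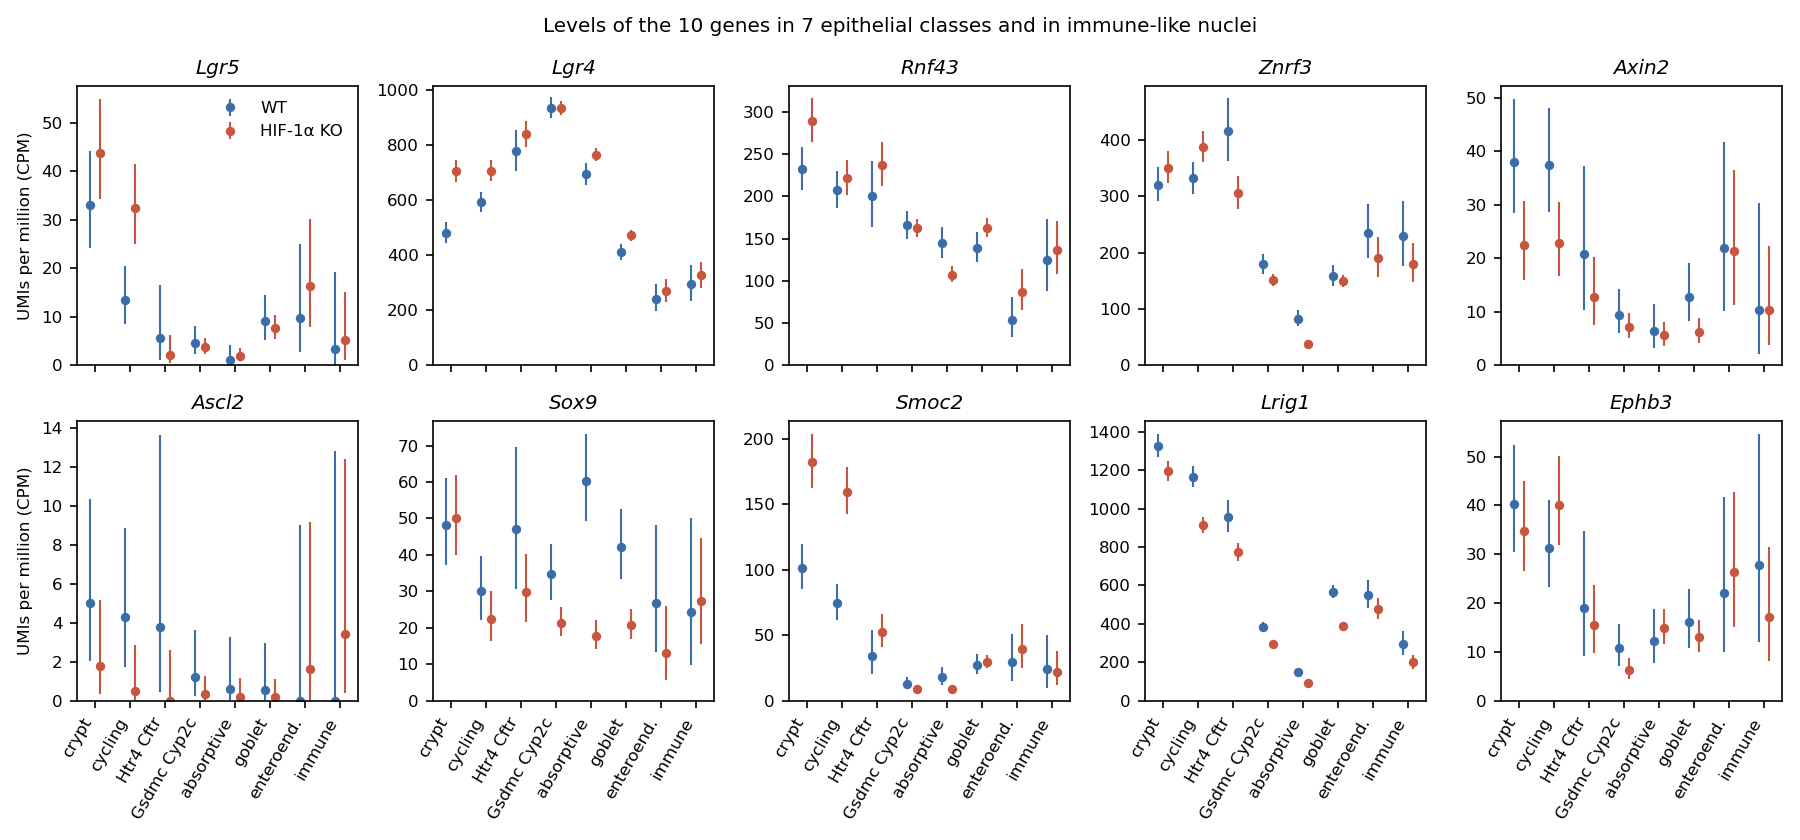
Level of each gene in CPM (vertical axes, linear from 0) in 7 epithelial classes and in immune-like nuclei (horizontal axes), with WT in blue, HIF-1α KO in red and bars for exact 95% Poisson intervals. Lrig1 and Smoc2 are high in crypt-like and cycling nuclei on the left. Lgr5 is high in crypt-like nuclei of both libraries and in cycling nuclei of HIF-1α KO only. Lgr4 peaks at 937 and 934 CPM in the enterocytes with Gsdmc and Cyp2c genes.

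Lgr5, the R-spondin receptor of crypt base stem cells, was sparse, and its level was far higher in crypt-like than in absorptive nuclei. Crypt-like nuclei held 46 of 141 UMIs of it in WT and 74 of 250 in HIF-1α KO, or 33.1 CPM (24.2 to 44.1) in WT and 43.7 CPM (34.3 to 54.8) in HIF-1α KO. Absorptive nuclei held 2 and 9 UMIs, or 1.17 CPM (0.142 to 4.24) in WT and 1.87 CPM (0.854 to 3.55) in HIF-1α KO. The intervals of the classes lay far apart, with a log2 ratio of crypt-like over absorptive nuclei of 4.55 (3.54 to 5.73) in HIF-1α KO and 4.82 (2.88 to 7.90) in WT, where fewer than 50 UMIs stood behind it. Cycling nuclei had 13.5 CPM (8.46 to 20.4) in WT and 32.5 CPM (25.1 to 41.5) in HIF-1α KO, which overlapped the crypt-like interval in HIF-1α KO. The highest level of the HIF-1α KO library was not in crypt-like nuclei but in 22 enteric neuron-like nuclei, at 81.4 CPM (46.5 to 132), where 13 of 16 UMIs lay in 1 nucleus. Goblet nuclei lay in between crypt-like and absorptive ones at 9.08 CPM (5.29 to 14.5) in WT and 7.60 CPM (5.38 to 10.4) in HIF-1α KO. An Lgr5 UMI was seen in 4.18% and 7.26% of crypt-like nuclei and in 0.610% and 1.08% of immune-like nuclei. With nuclei thinned to 1000 UMIs these shares were 2.66% and 3.47% and 0.610% and 0.372%, which left out 4 crypt-like and 10 immune-like nuclei of the HIF-1α KO library and none of the WT library.

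Lgr4, the related and more widely expressed R-spondin receptor, did not set the crypt apart. It stood at 482 CPM (446 to 520.1) in WT and 705 CPM (665 to 746) in HIF-1α KO in crypt-like nuclei and at 694 CPM (655 to 735) in WT and 766 CPM (741 to 791) in HIF-1α KO in absorptive nuclei. The log2 ratio of -0.53 (-0.66 to -0.39) in WT and -0.12 (-0.21 to -0.02) in HIF-1α KO was under 1.5-fold in both libraries, but at a clustering resolution of 2 that of WT was -0.65 (-0.85 to -0.45), called lower in crypt-like nuclei. Enterocytes with Gsdmc and Cyp2c genes had the highest level of any class, 937 CPM (899 to 976) in WT and 934 CPM (909 to 959) in HIF-1α KO, above the intervals of crypt-like nuclei.

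Rnf43 and Znrf3, the ligases that clear Frizzled, were both higher in crypt-like than in absorptive nuclei. Rnf43 was 232 CPM (207 to 259) in WT and 289.9 CPM (265 to 317) in HIF-1α KO in crypt-like nuclei and 145 CPM (127 to 164) in WT and 108 CPM (98.5 to 117) in HIF-1α KO in absorptive nuclei, with log2 ratios of 0.68 (0.44 to 0.92) and 1.43 (1.25 to 1.61). Znrf3 was 320.5 CPM (291 to 352) in WT and 351 CPM (324 to 381) in HIF-1α KO in crypt-like nuclei and 82.7 CPM (69.6 to 97.5) in WT and 38.6 CPM (33.3 to 44.6) in HIF-1α KO in absorptive nuclei, with log2 ratios of 1.95 (1.68 to 2.24) and 3.19 (2.95 to 3.43). The fall of Znrf3 was the steeper one in both libraries. With the level per nucleus of immune-like nuclei subtracted as background, the ratio of Rnf43 in WT was 0.17, under 1.5-fold, and for Znrf3 no ratio remained in either library, since its absorptive level was then under 0. The highest level of Znrf3 in WT was not in crypt-like nuclei but in enterocytes with Htr4 and Cftr, at 415 CPM (362 to 474).

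Axin2, a scaffold of the complex that destroys β-catenin and a feedback target of the pathway, had 53 and 38 UMIs in crypt-like nuclei, or 38.1 CPM (28.5 to 49.8) in WT and 22.4 CPM (15.9 to 30.8) in HIF-1α KO. Absorptive nuclei had 6.45 CPM (3.22 to 11.5) in WT and 5.61 CPM (3.69 to 8.16) in HIF-1α KO, and the log2 ratios were 2.56 (1.61 to 3.65) and 2.00 (1.25 to 2.77). Cycling nuclei, at 37.4 and 22.9 CPM, were close to crypt-like nuclei of the same library.

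The transcription factors differed. Ascl2 had 7 and 3 UMIs in crypt-like nuclei and 28 and 13 in the whole libraries, too few for a comparison. Sox9, which is active in crypt progenitors, was 48.1 CPM (37.3 to 61.1) in WT and 50.2 CPM (40.1 to 62.0) in HIF-1α KO in crypt-like nuclei. In absorptive nuclei it was 60.4 CPM (49.3 to 73.3) in WT and 17.9 CPM (14.3 to 22.1) in HIF-1α KO, so that the level in HIF-1α KO lay below the crypt-like intervals and that in WT overlapped them. The log2 ratio of crypt-like over absorptive nuclei was -0.33 (-0.79 to 0.13) in WT and 1.49 (1.04 to 1.94) in HIF-1α KO. About as many of the WT absorptive UMIs came from a small cluster led by Saa1, where 67 nuclei held 51 Sox9 UMIs or 129 (96.3 to 170.0) CPM, as from the main one, where 314 nuclei held 52. In the HIF-1α KO library the cluster led by Saa1 had 27.3 (18.1 to 39.4) CPM from 28 UMIs.

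Smoc2, a secreted matrix-associated protein of crypt base cells, fell from 101 CPM (85.3 to 119) in WT and 182 CPM (162 to 203) in HIF-1α KO in crypt-like nuclei to 18.2 CPM (12.4 to 25.8) in WT and 8.72 CPM (6.28 to 11.8) in HIF-1α KO in absorptive nuclei, log2 ratios of 2.48 (1.91 to 3.09) and 4.38 (3.91 to 4.88). Lrig1, a membrane protein that restrains ErbB receptors and marks crypt progenitors, fell from 1326 CPM (1267 to 1388) in WT and 1195 CPM (1144 to 1249) in HIF-1α KO to 152 CPM (134 to 172) in WT and 93.4 CPM (85.0 to 102) in HIF-1α KO, log2 ratios of 3.13 (2.94 to 3.32) and 3.68 (3.53 to 3.83). Lrig1 was graded through the epithelium, with 958 and 773 CPM in enterocytes with Htr4 and Cftr, 568 and 389.6 CPM in goblet nuclei and 382 and 297 CPM in enterocytes with Gsdmc and Cyp2c genes. Ephb3, an ephrin receptor that helps to place cells along the crypt axis, was 40.2 CPM (30.4 to 52.3) in WT and 34.8 CPM (26.5 to 44.9) in HIF-1α KO in crypt-like and 12.3 CPM (7.62 to 18.8) in WT and 14.9 CPM (11.7 to 18.8) in HIF-1α KO in absorptive nuclei, log2 ratios of 1.71 (0.96 to 2.51) and 1.22 (0.70 to 1.74).

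Counted together, 6 of the 8 genes with at least 50 UMIs were called higher in crypt-like than in absorptive nuclei of the WT library, and 8 of 9 in the HIF-1α KO library, where a call needs a 1.5-fold difference and Poisson intervals that do not overlap. Rnf43 and Znrf3 were among those counted in both libraries, with the limits given above once background was subtracted. Of all genes compared, 24.4% in WT and 37.7% in HIF-1α KO were called higher, and 19.8% and 15.9% lower, where no gene of the set was called. The median log2 ratio of the set was 1.83 and 2.00, against 0.14 and 0.43 over all genes. Against goblet nuclei 7 of 9 genes in WT and 8 of 9 in HIF-1α KO were called higher and none lower, beside 11.4% and 16.2% of all genes called higher and 12.3% and 9.34% lower. Lgr4 was called in neither library, but in HIF-1α KO it was called higher with nuclei thinned to 1000 UMIs, at 0.67 (0.47 to 0.88), and for crypt-like nuclei without a cycling UMI, at 0.69 (0.53 to 0.85). Sox9 had log2 ratios of 0.19 (-0.30 to 0.68) in WT, not called, and 1.27 (0.84 to 1.70) in HIF-1α KO. With the immune-like level subtracted the ratios in WT turned negative for Lgr4, from 0.23 (0.08 to 0.38) to -0.39, and for Sox9, to -0.26, and that of Ephb3 went from 1.33 (0.66 to 2.02) to 4.59, with 0.00164 UMIs per goblet nucleus remaining. Goblet nuclei were not uniform. The cluster with Spdef and Reg4 among its leading genes had Lrig1 at 919 (854 to 987) and 649 (614 to 685) CPM, and the cluster led by Clca1 had 208 (176 to 243) and 143 (127 to 161) CPM.

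**Figure D2:**
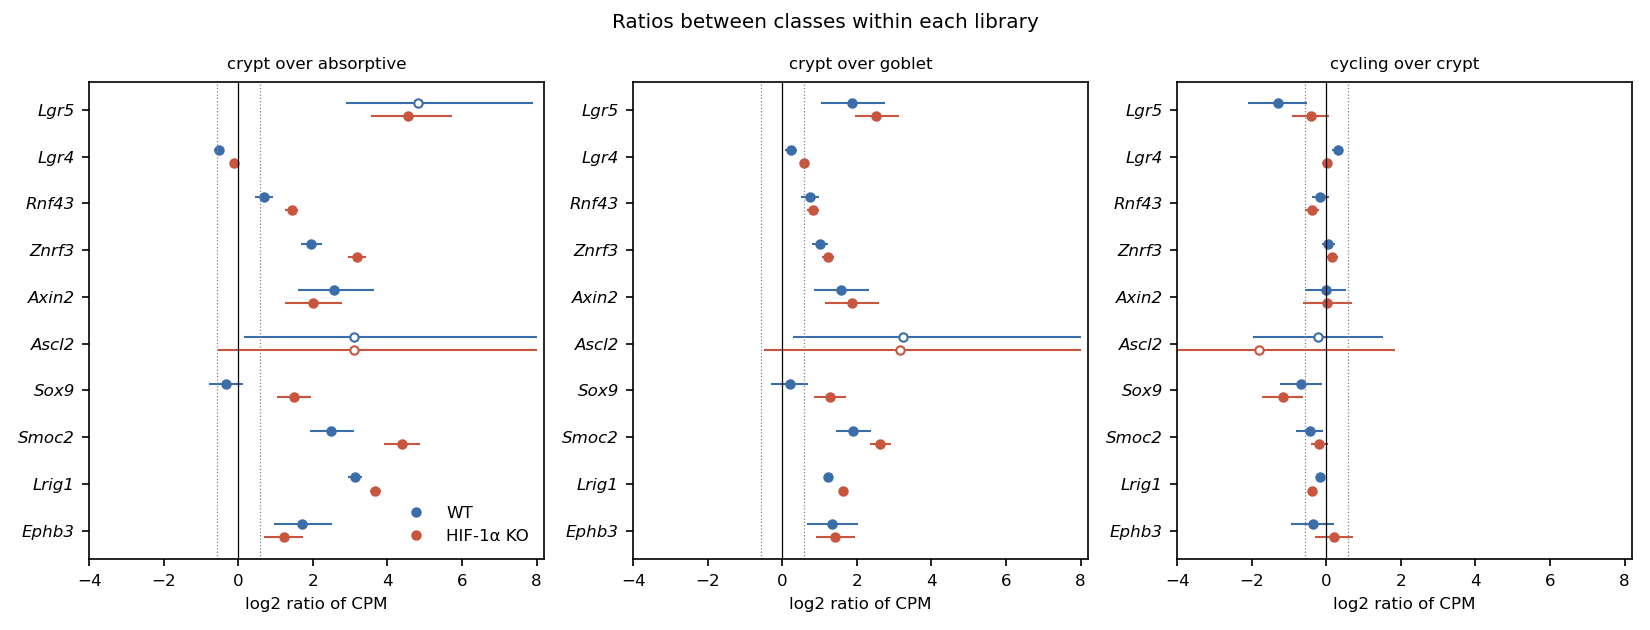
Log2 ratios of CPM between classes of the same library for each gene, with WT in blue, HIF-1α KO in red, lines for exact conditional 95% intervals (clipped at the frame), open symbols for genes with under 50 UMIs and dotted lines at 1.5-fold. Most points lie right of the dotted lines against absorptive and goblet nuclei, and most lie between these lines for cycling over crypt-like nuclei, where Lgr5 in WT is at -1.29.

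Between cycling and crypt-like nuclei Lgr5 was the 1 of 9 genes called in WT. It was lower in cycling nuclei at 13.5 CPM (8.46 to 20.4), a log2 ratio of -1.29 (-2.10 to -0.53). Lgr5 was called so in 4 of 7 alternative settings, and its ratio closest to 0 was -0.65. Sox9 was the 1 of 9 called in HIF-1α KO, lower in cycling nuclei at 22.4 CPM, a log2 ratio of -1.17 (-1.73 to -0.62). Of all genes, 2.78% and 3.02% were called lower and 4.75% and 5.9% higher, and no gene of the set was called higher. Lrig1 stood at 1166 CPM (1114 to 1220.0) in WT and 915 CPM (873 to 958) in HIF-1α KO in cycling nuclei, with log2 ratios over crypt-like nuclei of -0.19 (-0.28 to -0.09) and -0.39 (-0.48 to -0.29). With the immune-like level per nucleus subtracted, which gives values without an interval, the log2 ratios of Lgr4 and Znrf3 in WT were 1.27 and 1.28, past 1.5-fold toward cycling nuclei, and in HIF-1α KO 0.31 and 0.52.

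These counts depended on how finely the nuclei were divided. At a clustering resolution of 2 in place of 1 the crypt-like class held 253 WT and 229 HIF-1α KO nuclei, led by Tiam1, Smoc2, Kcnq1, Fut9 and Lgr5. In this smaller class Lgr5 was 56.4 CPM (38.3 to 80.0) in WT and 78.2 CPM (60.6 to 99.3) in HIF-1α KO. Smoc2 was 180.1 CPM (146 to 219) and 284 CPM (249 to 322). Lrig1 was 1913 CPM (1799 to 2032) and 1486 CPM (1405 to 1569.7). Of 9 genes compared in each library, cycling nuclei were then called lower for 4 in WT (Lgr5, Smoc2, Lrig1 and Sox9) and for 5 in HIF-1α KO (those and Rnf43), beside 1.76% and 2.32% of all genes called lower. They had log2 ratios for Smoc2 of -1.31 (-1.70 to -0.91) and -0.85 (-1.09 to -0.60) and for Lrig1 of -0.69 (-0.79 to -0.58) and -0.71 (-0.81 to -0.60). Against crypt-like nuclei without any cycling UMI (193 and 180 nuclei) no gene was called in WT, where Lgr5 had too few UMIs, and Sox9 alone was called in HIF-1α KO, beside 1.96% and 3.35% of all genes called lower.

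Single nuclei carried few of these genes at a time. After thinning to 1000 UMIs, crypt-like nuclei had UMIs of 1.63 and 1.84 of the 10 genes on average, cycling nuclei of 1.66 and 1.75, and absorptive nuclei of 0.906 and 0.776. At least 4 of the genes were found in 4.18 and 7.86 percent of crypt-like nuclei and in 0.787 and 0.151 percent of absorptive nuclei. Enterocytes with Htr4 and Cftr, at 1.66 and 1.66 genes on average, were close to crypt-like nuclei by this measure. Immune-like nuclei, which should lack most of these genes, still had 0.829 and 0.740.

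**Figure D3:**
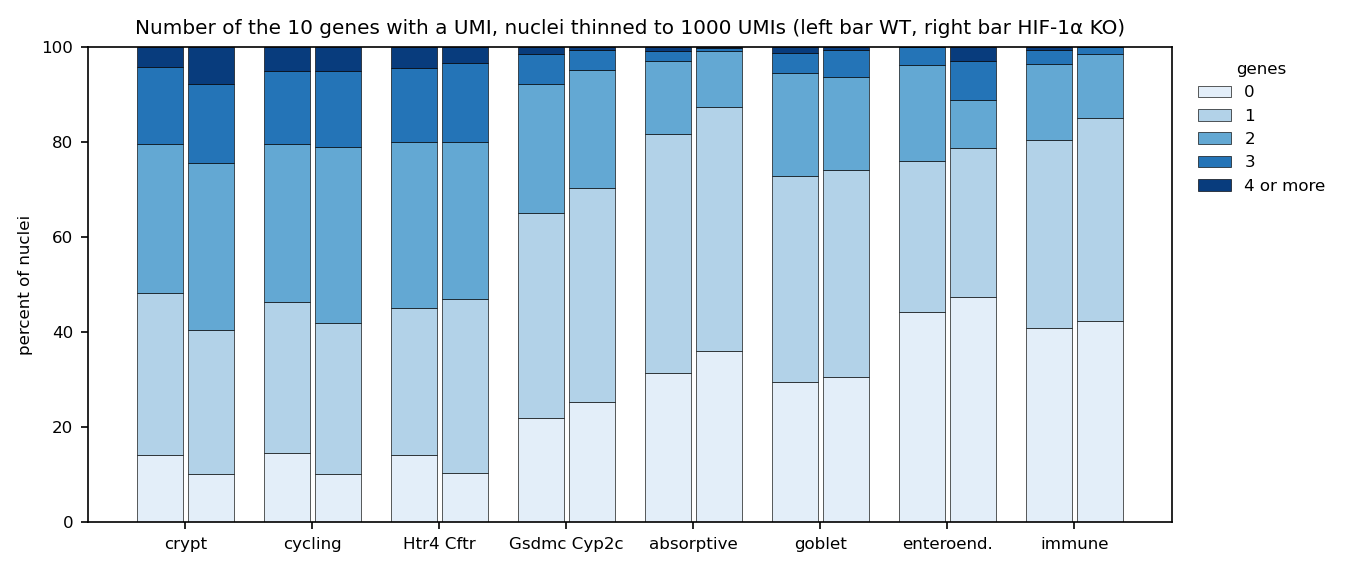
Share of nuclei (vertical axis, percent) with UMIs of 0, 1, 2, 3 or at least 4 of the 10 genes after each nucleus was thinned to 1000 UMIs, by class, with a WT and an HIF-1α KO bar for each. None of the genes was found in 14.2 and 10.2 percent of crypt-like nuclei and in 31.5 and 36.1 percent of absorptive nuclei.

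The level in immune-like nuclei serves as the measure of free RNA, and per nucleus it was of a like size to some absorptive values. Znrf3 had 0.402 and 0.376 UMIs per immune-like nucleus, 0.370 and 0.280 per absorptive nucleus and 0.565 and 1.08 per crypt-like nucleus. By this measure its absorptive level was not above background in either library. Endothelial nuclei held 0.2875 and 0.515 UMIs of Znrf3 per nucleus, and lymphatic endothelial nuclei 0.468 and 0.220. In each library these lay on either side of the absorptive level, so the result depends on the class taken as background. Whether immune-like nuclei express Znrf3 was not tested. Lrig1 had 0.518 and 0.416 UMIs per immune-like, 0.680 and 0.678 per absorptive and 2.34 and 3.68 per crypt-like nucleus. Lgr4 had 0.518 and 0.685 per immune-like, 3.10 and 5.55 per absorptive and 0.849 and 2.17 per crypt-like nucleus, well above background in both epithelial classes of the HIF-1α KO library. The immune-like level per nucleus was subtracted from both classes as an alternative chosen after the data were seen. The log2 ratio of crypt-like over absorptive nuclei was then 4.84 and 4.88 for Lrig1 and 3.16 and 6.18 for Smoc2. In HIF-1α KO only 0.0167 UMIs of Smoc2 per absorptive nucleus remained behind that value. For Rnf43 the log2 ratio was 0.17 in WT, no longer 1.5-fold, and 1.53 in HIF-1α KO. For Lgr4 it was -1.62 in WT, past 1.5-fold toward absorptive nuclei, and -0.48 in HIF-1α KO, and for Sox9 in WT it was -1.09.

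**Figure D4:**
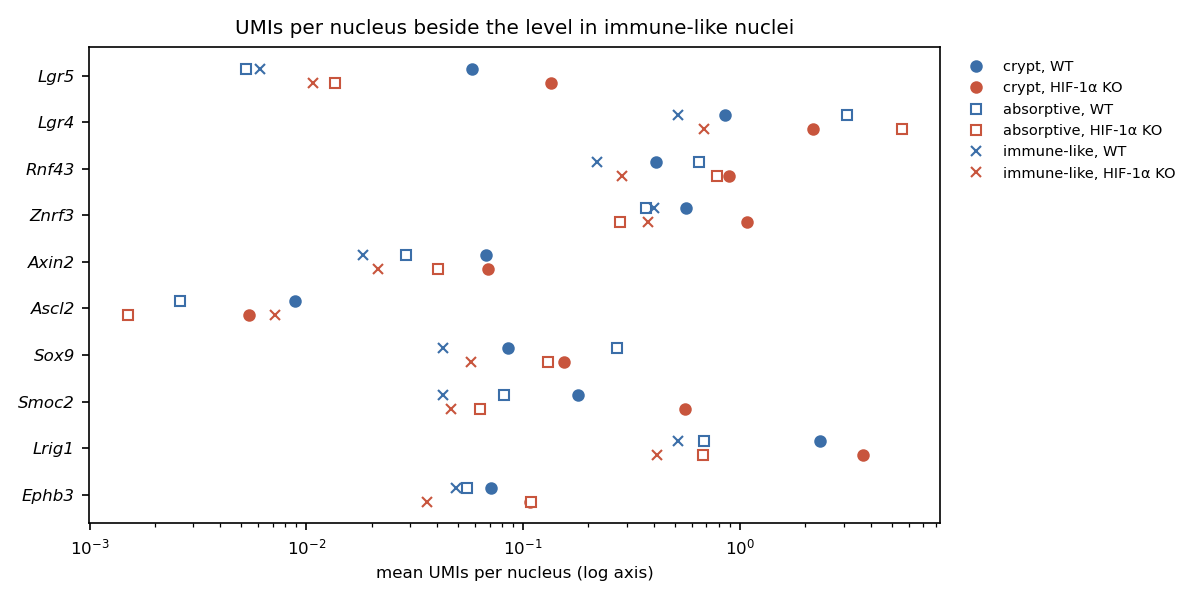
Mean UMIs per nucleus (horizontal axis, logarithmic) of each gene in crypt-like, absorptive and immune-like nuclei, told apart by symbol, with WT in blue and HIF-1α KO in red. Znrf3 is lower in absorptive than in immune-like nuclei of both libraries, and Lrig1 and Smoc2 are highest in crypt-like nuclei.

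Between the genotypes, Smoc2 was the 1 of 9 genes called in crypt-like nuclei. Smoc2 was 182 CPM in HIF-1α KO against 101 CPM in WT, a log2 ratio of 0.84 (0.55 to 1.14). Of all genes, 11.7% were called higher and 5.01% lower in HIF-1α KO crypt-like nuclei, and the median of the set was 0.13 against 0.18 over all genes. Lgr5 had a log2 ratio of 0.40 (-0.15 to 0.97), and Lgr4 of 0.55 (0.41 to 0.69), not called. Axin2 had -0.76 (-1.40 to -0.14), with Poisson intervals that overlapped. These values depended on the background. With the immune-like level per nucleus subtracted the log2 ratio was 1.36 for Lgr4, 1.31 for Znrf3, 0.87 for Rnf43, 0.88 for Ephb3 and 1.11 for Smoc2, all past 1.5-fold toward HIF-1α KO and without an interval. For Axin2 it was -0.84, past 1.5-fold toward WT. Before the subtraction that of Znrf3 was 0.13 (-0.05 to 0.31) and that of Ephb3 -0.21 (-0.76 to 0.35). After it, 0.0221 UMIs of Ephb3 per crypt-like nucleus remained in WT and 0.0712 in HIF-1α KO, and 0.162 and 0.704 of Znrf3. Endothelial nuclei held fewer UMIs of Znrf3 per nucleus than immune-like nuclei in WT and more in HIF-1α KO. They were not tried as background.

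In cycling nuclei Lgr5 and Smoc2 were called higher in HIF-1α KO, 2 of 9 genes compared, beside 8.15% of all genes called higher and 3.92% lower. Lgr5 was 32.5 CPM (25.1 to 41.5) in HIF-1α KO against 13.5 CPM (8.46 to 20.4) in WT, a log2 ratio of 1.27 (0.55 to 2.04). Smoc2 was 159.6 CPM (142 to 178) against 74.2 CPM (61.6 to 88.7), a log2 ratio of 1.10 (0.80 to 1.42). The Lgr5 UMIs lay in few nuclei, 32 in HIF-1α KO with at most 8 in 1 nucleus and 16 in WT with at most 6. With nuclei thinned to 1000 UMIs 0 of 5 genes compared were called, beside 5.39% of all genes called higher, and the log2 ratio of Smoc2 was 0.19 (-0.50 to 0.88). Lgr5, at 0.86 (-0.73 to 2.52), then had too few UMIs to compare. Of 10 alternative settings, thinning among them, Smoc2 was called in 9 and Lgr5 in 8.

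In absorptive nuclei Sox9, Smoc2, Znrf3 and Lrig1, 4 of 7 genes compared, were called lower in HIF-1α KO and none higher, beside 10.5% of all genes called lower and 6.65% higher. Sox9 had the largest of these log2 ratios, -1.76 (-2.19 to -1.33), and was lower in both absorptive clusters, at 15.3 against 39.7 CPM in the main one and 27.3 against 129 CPM in the one led by Saa1. Smoc2 had -1.06 (-1.76 to -0.34), Znrf3 -1.10 (-1.42 to -0.77) and Lrig1 -0.70 (-0.93 to -0.48). Per absorptive nucleus, however, Lrig1 stood at 0.680 and 0.678 UMIs in WT and HIF-1α KO, and with the immune-like level subtracted its log2 ratio was 0.00, while that of Sox9 was -2.35 and that of Smoc2 -1.91. Ephb3 went the other way, from 0.28 (-0.44 to 1.06) to 2.82, with 0.00634 UMIs per nucleus remaining in WT. For Smoc2 0.0167 UMIs per nucleus remained in HIF-1α KO. For Znrf3 no ratio remained, since its absorptive level lay under the immune-like one in both libraries. The absorptive nuclei of the HIF-1α KO library were deeper, with a median of 5964 UMIs against 3926, and with nuclei thinned to 1000 UMIs 2 of 4 genes compared, Lrig1 and Znrf3, were called lower, beside 3.95% of all genes. The log2 ratios were then -0.76 for Lrig1 and -1.37 for Znrf3, and -1.80 for Sox9 and -0.97 for Smoc2, which had too few UMIs to compare. Smoc2 was called in 7 of 10 alternative settings, and its log2 ratio was -0.45 with each nucleus placed by its own marker score.

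**Figure D5:**
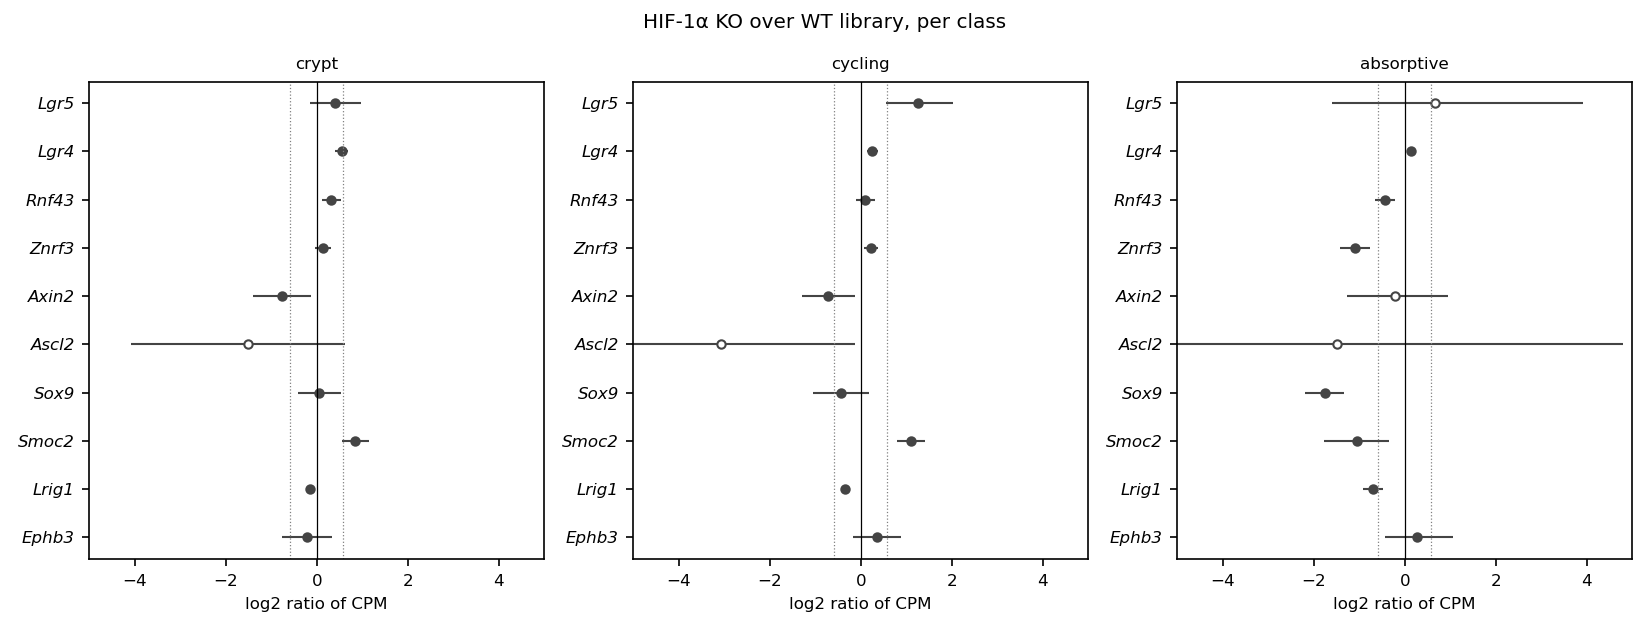
Log2 ratio of CPM in the HIF-1α KO over the WT library for each gene in crypt-like, cycling and absorptive nuclei, with lines for exact conditional 95% intervals (clipped at the frame), open symbols for genes with under 50 UMIs and dotted lines at 1.5-fold. Smoc2 lies at 0.84 in crypt-like, 1.10 in cycling and -1.06 in absorptive nuclei, where Sox9 is at -1.76.

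Over all nuclei kept, Lgr5 and Smoc2 hardly differed between the libraries. Lgr5 was 10.6 and 10.6 CPM, a log2 ratio of -0.01 (-0.31 to 0.30), and Smoc2 44.3 and 45.3 CPM. Axin2 was 18.0 CPM (15.8 to 20.5) in WT and 9.91 CPM (8.68 to 11.3) in HIF-1α KO, a log2 ratio of -0.86 (-1.13 to -0.60), and Sox9 38.4 CPM (35.1 to 41.9) and 23.5 CPM (21.6 to 25.6), a log2 ratio of -0.71 (-0.88 to -0.53). The make-up of the libraries differed too. Crypt-like nuclei were 16.2% (15.2% to 17.2%) of nuclei in WT, whereas in HIF-1α KO their share was 11.7% (10.8% to 12.7%), a log2 ratio of -0.47 (-0.62 to -0.31). At a resolution of 2 the shares were 5.18% and 4.87%, and with the Wnt genes taking part in the clustering 5.79% and 6.25%, so that the direction of this difference turned with the clustering. Fewer cells of a type and fewer of its nuclei captured cannot be told apart here. A shallow cluster that stayed unnamed, led by AY036118, Igkc and Gpx2, held 703 WT and 172 HIF-1α KO nuclei. It had Lrig1 at 427 and 347 CPM and Sox9 at 43.3 and 60.3 CPM. Its level of Lgr5 was 19.2 and 11.5 CPM and that of Smoc2 52.9 and 54.6 CPM.

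Other genes of the pathway were taken from lists. Of 13 further targets and feedback genes, 4 could be compared in crypt-like over absorptive nuclei, and 3 were called higher in WT and 4 in HIF-1α KO, with none lower, beside 24.4% and 37.7% of all genes called higher. The medians of the list were 1.29 and 1.95, against 0.14 and 0.43 over all genes. Ephb2, the relative of Ephb3 in cell positioning, was 892 and 668 CPM in crypt-like nuclei against 252 and 175 CPM, log2 ratios of 1.82 (1.66 to 1.98) and 1.93 (1.80 to 2.06). Cd44, a hyaluronan receptor, had log2 ratios of 1.22 (0.80 to 1.65) and 2.08 (1.69 to 2.48), and Ccnd2, a cyclin of the G1 phase, of 1.37 (1.04 to 1.70) and 1.98 (1.70 to 2.27). Nkd1, a feedback inhibitor, had 4 and 1 UMIs in crypt-like nuclei, too few to compare, but 40 and 40 in smooth muscle-like nuclei, or 60.4 and 86.3 CPM.

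Receptors and transducers of the signal did not share a direction, and their counts stand beside 24.4% and 37.7% of all genes called higher in WT and HIF-1α KO and 19.8% and 15.9% lower. Of 16 receptor genes 7 were compared, and 3 were called higher and 2 lower in WT, and 5 higher and 1 lower in HIF-1α KO. Ror2, a receptor of Wnt5a, had log2 ratios of 1.86 (1.32 to 2.44) and 3.47 (2.96 to 4.01), and the Frizzled gene Fzd5 of -1.35 (-1.99 to -0.76) and -1.06 (-1.59 to -0.56). The co-receptor Lrp5 was called higher in both libraries, at 119 and 144 CPM against 42.2 and 29.7 CPM. Of 10 transduction genes, 8 were compared in WT and 9 in HIF-1α KO, with 0 and 2 called higher and Ctnnb1, which encodes β-catenin, the 1 called lower in each, at 181 and 155 CPM against 297 and 347 CPM. Of 8 nuclear factors 5 were compared, with 1 called higher in WT (Bcl9l) and 3 in HIF-1α KO (Tcf7l1, Bcl9 and Bcl9l), and Tcf7l2, a main TCF factor of the gut, was the 1 called lower in each, at 1441 and 1749 CPM against 3960.4 and 4951 CPM.

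Relatives of the set fell on both sides. Of 6 such genes 5 were compared, and 2 were called higher in both libraries and 3 lower in WT and 2 lower in HIF-1α KO, beside 24.4% and 37.7% of all genes called higher and 19.8% and 15.9% lower. Lrig3 was called higher in crypt-like than in absorptive nuclei, with log2 ratios of 1.05 (0.79 to 1.31) and 1.70 (1.53 to 1.88), and so was Ephb4, with 2.40 (1.80 to 3.05) and 2.76 (2.36 to 3.18). Lrig2, a relative of Lrig1, was called lower in WT, with -0.60 (-0.94 to -0.26), and was not called in HIF-1α KO, with -0.0488 (-0.34 to 0.24). The ephrins Efnb1 and Efnb2, ligands of EphB receptors, were called lower, with -1.64 (-2.11 to -1.19) and -0.71 (-1.05 to -0.39) and with -1.76 (-2.08 to -1.46) and -2.06 (-2.32 to -1.81). Of 4 further stem cell markers 1 could be compared, Hopx, which has been used to mark reserve stem cells. Hopx was called higher, at 37.4 and 57.3 CPM against 9.38 and 5.61 CPM, beside 24.4% and 37.7% of all genes. Olfm4, Msi1 and Bmi1 had too few UMIs to compare. In a repair list of 6 genes, all 4 that could be compared, Ly6a, Anxa1, Anxa3 and S100a6, were called lower in crypt-like than in absorptive nuclei of both libraries, beside 19.8% and 15.9% of all genes. Ly6a, which marks regenerating colon epithelium, was 53.2 and 66.7 CPM in crypt-like against 257 and 249.8 CPM in absorptive nuclei.

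Between the genotypes, the further targets Cd44, Ccnd1 and Ccnd2, 3 of 4 compared, were called lower in absorptive nuclei of HIF-1α KO, beside 10.5% of all genes, and the median of the list was -1.01 against -0.09 over all genes. In crypt-like nuclei 0 of 4 were called, beside 11.7% of all genes called higher and 5.01% lower. All 4 log2 ratios were negative there, with a median of -0.35 against 0.18 over all genes. In cycling nuclei Ephb2 and Ccnd2, 2 of 4, were called lower in HIF-1α KO, beside 3.92% of all genes. Of 5 nuclear factors compared, Tcf7l1 was called higher in crypt-like and cycling nuclei, beside 11.7% and 8.15% of all genes. Pygo2 was called lower in cycling and absorptive nuclei. Of 7 receptors compared, Ror2 was called higher in cycling nuclei, and Ror2 and Ryk lower in absorptive nuclei. Of 5 relatives compared, Lrig2 was called lower in absorptive nuclei. The genes of these lists were compared in the main setting only. Whether their calls hold with nuclei thinned or with the immune-like level subtracted was not tested.

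The R-spondin genes had too few UMIs in crypt-like and absorptive nuclei for a comparison. Rspo3 was found in smooth muscle-like nuclei, with 98 and 93 UMIs or 148 CPM (120.2 to 180.4) in WT and 201 CPM (162 to 246) in HIF-1α KO, and had 6 and 2 UMIs in crypt-like nuclei. Rspo2 had 20 and 29 UMIs in 27 and 22 enteric neuron-like nuclei.

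Likeness of pattern was measured by Pearson's r of log2(CPM + 10) over clusters with at least 30 nuclei, 19 in WT and 20 in HIF-1α KO, among 7867 genes. It is a description, since the clusters share library, depth and free RNA. Within the set, Lrig1 and Znrf3 were the most alike pair, with r of 0.86 and 0.92, and Lgr5 and Smoc2 had 0.76 and 0.80. Lgr4 was unlike Lgr5, with 0.01 and 0.00, and nearest to Rnf43, with 0.61 and 0.53. Outside the set, Lrig1 was most like Kank1 (0.96 and 0.91), Vgll4 and Cenpv, and Znrf3 most like Hdac4 (0.90 and 0.87), Luc7l and Gm47283. Lgr4 was most like Eef2k (0.86 and 0.85), Maoa and Fgd4, and Rnf43 most like Cyb5b (0.90 and 0.85), Mgam and Prkca. For the sparser genes the likenesses were weaker. Lgr5 was most like Pnn (0.69 and 0.69), Rgmb and Gnl3, Smoc2 most like Tssc4 (0.78 and 0.70), Lig1 and Ncapg, and Axin2 most like Polr3e (0.75 and 0.76), Rtn4rl1 and Gsta3. Sox9 was most like Lamtor1 (0.77 and 0.77), Rpl37 and Ndufb4, Ephb3 most like Gsr (0.76 and 0.71), Gclm and Etv4, and Ascl2, with the fewest UMIs, most like Rpl14 (0.61 and 0.55), Ccnd1 and Rcl1.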

How the data were processed

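Colon nuclei of 1 WT and 1 HIF-1α KO library, each from 3 pooled animals, were used. The authors had aligned the reads to mm10 (GRCm38) with Cell Ranger 7.0.1, per the labels, and deposited raw counts of UMIs per gene and barcode; whether intronic reads were counted is not given in the sources used here. From these, CPM per library and class were computed here with Python 3.11.15, numpy 2.4.6, pandas 2.3.3 and scipy 1.17.1, after the filters of the study's methods (400 to 5000 genes, at most 10% mitochondrial UMIs).

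Libraries were integrated and clustered with Seurat 5.3.0 in R 4.3.3 (2000 variable features without 61 Wnt and R-spondin genes, 30 components, resolution 1, seed 1). A cluster took the class with the highest mean log2 marker ratio over all other nuclei (10 CPM added) if at least 3 of its markers were 1.5-fold higher and in 10% of nuclei, at least 1 was among the 10 leading genes, and no other class had more there. All of these limits were chosen once the data had been seen. Scrublet (scanpy 1.11.5) called 0 and 1 doublets and did not serve, so doublets were not removed, and an alternative without the deepest 5% of nuclei stands in for this.

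The set, the lists and the markers were chosen with earlier results of these data known. The text names all genes of the set, list genes, class markers, leading genes of clusters and the 3 genes most like each of the set. With 1 library per genotype no test was made, and a gene was called at 1.5-fold with non-overlapping exact 95% Poisson intervals and at least 50 UMIs. Intervals of shares are exact binomial and those of log2 ratios exact conditional ones, and a ratio against 0 uses a floor of 3 UMIs. The calling was tested on simulated data, whose outcome is not given here and is not used for any call. Genes were placed with GENCODE M21 by Ensembl identifier. Alternatives covered the integration, the resolution, the variable features, assignment of each nucleus by marker score, the filter on nuclei, thinning, equal weight per nucleus, the UMI minimum and crypt-like nuclei without cycling UMIs, and, chosen after seeing the data, subtraction of the immune-like level.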

Additional observations from a re-analysis of the deposited data

Results flagged for a closer look

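Smoc2 differed between the genotypes in opposite directions in different classes, with log2 ratios of HIF-1α KO over WT of 0.84 (0.55 to 1.14) in crypt-like nuclei, 1.10 (0.80 to 1.42) in cycling nuclei and -1.06 (-1.76 to -0.34) in absorptive nuclei. In cycling nuclei Smoc2 was called in 9 of 10 alternative settings. The exception was nuclei thinned to 1000 UMIs, where the ratio was 0.19, not called. In absorptive nuclei Smoc2 was called in 7 of 10 alternative settings, and the ratio closest to 0 was -0.45. The difference between the classes was not tested, since each genotype had 1 library.

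Genes of the set also stood above their level in immune-like nuclei in classes outside the epithelium that the comparisons do not use. Smooth muscle-like nuclei had Smoc2 at 106 and 99.2 CPM and Lrig1 at 468 and 371 CPM, against 24.3 and 22.3 CPM and 295 and 199 CPM in immune-like nuclei, and in WT Lgr4 at 414 CPM against 295 CPM. Mesothelial-like nuclei of the WT library had Smoc2 at 530 CPM (363 to 749), from 32 UMIs in 9 of 18 nuclei, whereas those of the HIF-1α KO library had 4 UMIs in 2 of 13. Glia-like nuclei of the HIF-1α KO library, 9 in number, had Lgr4 at 624 CPM and Smoc2 at 151 CPM. Enteric neuron-like nuclei of the HIF-1α KO library had Lgr5 at 81.4 CPM (46.5 to 132), from 16 UMIs in 3 of 22 nuclei with 13 in 1 nucleus, and the 27 WT nuclei had 0, where 3 UMIs would be 19.9 CPM and the exact 95% interval reaches 24.5 CPM.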

How the results depend on the processing

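No paired analysis was possible because each genotype had 1 library. Without integration, at a resolution of 0.5 and with all barcodes, no cluster took the name non-cycling crypt, so the results that need it have no value there. With 1000 UMIs per nucleus fewer genes had 50 UMIs, and the genes called were 4 (crypt-like over absorptive, HIF-1α KO), 0 (cycling over crypt-like, WT), 4 and 5 (crypt-like over goblet, WT and HIF-1α KO), 0 (HIF-1α KO over WT, cycling) and 2 (the same, absorptive). In cycling over crypt-like nuclei of HIF-1α KO the 1 gene called when thinned was Smoc2 (-0.78), in place of Sox9, which had too few UMIs. Crypt-like over absorptive nuclei gave 4 of 6 in WT when thinned, by marker score and without cycling UMIs, all higher. In the main setting 24.4% of all genes were called higher there. It gave 5 higher and 1 lower (Lgr4) of 7 at a resolution of 2, and 7 higher and 1 lower of 9 with the Wnt genes among the variable features. Cycling over crypt-like nuclei gave 4 in WT and 5 in HIF-1α KO, all lower, at a resolution of 2 and also with the Wnt genes among the variable features, and 0 in WT both by each nucleus's own marker score and for crypt-like nuclei without a cycling UMI. Crypt-like over goblet nuclei gave 4 in WT under these last alternatives. With the Wnt genes among the variable features the genes counted helped to define the class, so those counts are no independent support. HIF-1α KO over WT gave 2 in crypt-like nuclei with the Wnt genes among the variable features and 1 in cycling nuclei by marker score. In the main setting 11.7% and 8.15% of all genes were called higher there, and 5.01% and 3.92% lower. Where no share of all genes under the same alternative is given above, the counts of this section cannot be set against one. The log2 ratio of the crypt-like share reversed to 0.11 with the Wnt genes among the variable features and was -0.089 at a resolution of 2, -0.10 by marker score and -0.0458 without cycling UMIs. The cause was not tested. For single genes, 507 of 669 values stayed within the interval of the main one and 161 moved. Of the called differences 1 changed sign, Lrig1 in absorptive nuclei, which came to no difference (0.000881 on the log2 scale) with the immune-like level subtracted. Of the values that were not called, 39 changed sign. Ascl2 had too few UMIs in every comparison, and Lgr5 in those with absorptive nuclei in WT and between the genotypes. Whether depth was the reason was not tested.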
